A study of Rattus norvegicus with 40 samples.

Results

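INS-1E is an insulin-producing line derived from a rat insulinoma and is widely used as a stand-in for the pancreatic beta cell. The data compared here are 9 of the 40 arrays of a time course, chosen by the treatment and time in their titles: the 4 arrays of cytokine-exposed cells collected at 24 and 36 h, and the 5 arrays of cytokine-exposed cells collected at 8, 10 and 12 h. The cytokine cells had received recombinant human IL-1 at 10 units/ml together with recombinant murine IFN-γ at 100 units/ml. Beside them stand 5 arrays of cells kept in medium without cytokines, 2 of them at 24 and 36 h and 3 at 8, 10 and 12 h, so that a change shared with unexposed cells can be seen. The cytokine arrays comprised replicates 1 and 2 at every time except 10 h, which had replicate 1 alone, and all control arrays of these times were replicate 1. Each array measured total RNA on an Affymetrix Rat ST array, and a value is a log2 signal for 1 probe set. In the labels, the treatment field of cytokine arrays gives interferon beta where titles and protocol give IL-1, and the RNA protocol mentions islets although the samples are a cell line. Titles were followed. The series had 2 occasions, which the labels do not tie to replicate numbers. Nothing in the labels says that replicates were separate cultures, so p-values measure the spread between arrays, which may be technical or may include the occasion.

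IL-1 signals through its receptor and IκB kinase to NF-κB, which enters the nucleus and switches on genes of chemokines, adhesion molecules and its own inhibitor IκBα. IFN-γ signals through Janus kinases to STAT factors and interferon regulatory factors, which switch on antigen presentation, guanylate-binding proteins and antiviral effectors. In beta cells the combination is known for inducing nitric oxide synthase and for impairing insulin release and survival, and it is used as a model of islet inflammation in type 1 diabetes. The comparison asks which of these transcripts were held and which faded after 12 h of exposure, and which transcripts rose in that time.

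At 24-36 h, 520 of 16587 genes were lower than at 8-12 h in cytokine cells (3.13% called) and 284 were higher (1.71% called; 4.85% in either direction), by limma with Benjamini-Hochberg adjusted p under 0.05. A 2-fold difference was passed by 57 of the lower genes and by 9 of the higher genes. The median difference over all genes was -0.0006 on the log2 scale. The 4 later arrays did not overlap the 5 earlier ones for 452 of the 520 lower genes and 241 of the 284 higher genes, where 5.47% of all genes lay apart in the lower direction and 4.19% in the higher direction. In control cells the same times gave 0 called genes (0% called by limma, smallest adjusted p = 0.316), with 1356 at an unadjusted p under 0.05, of which 898 were higher and 458 lower. The control comparison rests on 5 arrays, 1 per time, against 9 in cytokine cells, so it could detect less. The fit with the replicate number as a block, which uses the pairing of the cytokine arrays, called 433 higher and 681 lower genes in cytokine cells, and 1 higher gene in control cells.

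The later arrays did not contribute alike. Set against 8-12 h, the 36 h arrays alone gave 193 higher and 386 lower genes, and the 24 h arrays alone gave 48 higher and 136 lower. The count of higher genes was 122 without replicate 2 at 24 h, 152 without replicate 1 at 36 h, 182 without replicate 2 at 36 h and 168 without replicate 1 at 12 h. The count of lower genes was 299 without replicate 2 at 24 h. Replicate 1 and replicate 2 share no array, and the change computed within each correlated across all genes with r = 0.519. Every one of the 284 higher genes had a positive change in both replicates, and of the 520 lower genes 519 had a negative change in replicate 1 and 520 in replicate 2, as a description of arrays that also entered the calls.

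Of the 520 lower genes, 224 (43.1%) had been raised early. Cytokine against control arrays at 4 and 6 h, which share no array with either window, gave 492 higher genes (2.97% called) and 102 lower genes (0.615% called; 3.58% in either direction). Of the 492 genes raised early, 224 (45.5%) were lower at 24-36 h than at 8-12 h and 3 were higher, and their median difference was -0.39 in cytokine cells and -0.05 in control cells. Of the 215 genes raised at least 2-fold at 4-6 h, 139 (64.7%) were lower and 0 were higher by limma, 14 had a difference above 0, and the median was -0.65. Of the 102 genes lowered early, 16 were higher, 1 was lower, and the median was 0.10. The count of 224 was 146 without replicate 2 at 24 h and 146 without replicate 2 at 36 h. The early calls themselves rest on 1 control array at each time: without the control array at 4 h there were 318 higher and 33 lower genes, and without that at 6 h there were 290 and 36. These control arrays were replicate 1 alone, while the cytokine arrays at 4 and 6 h were replicates 1 and 2. The replicate block gave 588 higher and 276 lower genes at 4-6 h.

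The mean log2 level of the 224 genes in cytokine cells was 8.69 at 8 h, 8.80 at 10 h, 8.54 at 12 h, 8.02 at 24 h, 7.70 at 36 h and 7.58 at 48 h, and by 72 h it read 7.44. The same mean lay between 6.83 and 6.95 in control cells at every one of the 13 times. The cytokine mean was lower at each of these times after 10 h than at the one before, and at 72 h it was still above the control range. The genes were chosen for being lower at 24-36 h than at 8-12 h, so the fall between those windows follows from the choice. Arrays at 48 and 72 h were in neither window. Of the 520 lower genes, 295 were not called in either direction at 4-6 h, and of the 284 higher genes 265 were not.

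Chemokines included the largest single drop, that of Cxcl9. Of 33 measured chemokine and cytokine genes, 14 fell, where 3.13% of all genes were called lower, and 0 rose by limma (17 lower and 1 higher at an unadjusted p under 0.05). The median was -0.25, and in control cells it was 0.06. Cxcl9, a ligand of the T-cell receptor CXCR3 induced by IFN-γ, read 6.27 and 6.09 at 24 h and 5.41 and 4.66 at 36 h, against 8.58 and 8.35 at 8 h, 9.02 at 10 h and 8.64 and 8.10 at 12 h in cytokine cells (replicate 1 first, here and below). Every later array lay below every earlier one, and the lowest later array was still above the control arrays, which read 4.04 and 4.36 at 24 and 36 h and 4.18, 4.09 and 4.32 at 8, 10 and 12 h. The difference was -3.01 ± 0.17 (SE), an 8.05-fold drop (limma adjusted p = 1.14e-09).

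Cxcl10 and Cxcl11, the other ligands of CXCR3, fell less far and stayed well above control levels. Cxcl10 read 10.31 and 10.21 at 24 h and 9.55 and 9.16 at 36 h, against 11.90 and 11.49 at 8 h, 11.98 at 10 h and 11.65 and 11.56 at 12 h in cytokine cells. The control arrays read 6.55 and 6.39 at 24 and 36 h and 6.93, 7.10 and 7.22 at 8, 10 and 12 h. The groups did not overlap, the cytokine difference was -1.95 ± 0.14 (limma adjusted p = 1.71e-08), and the control difference was -0.61 ± 0.18 (adjusted p = 0.41). Cxcl11 averaged 8.82 ± 0.73 at 24-36 h and 10.74 ± 0.33 at 8-12 h in cytokine cells (SD, n = 4 and 5), a difference of -1.96 ± 0.19, while the 5 control arrays lay between 5.11 and 5.96.

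The promoters of these genes show which response elements lie near their starts, and Cxcl10 and Cxcl1 are printed because they carry the elements of the pathways named above. The sequences are RefSeq's on GRCr8, 5′ to 3′ on the gene's strand, 250 bases before and 50 bases after the annotated start. Capitals mark matches to GAAA and GAAA with 2 bases of any kind between them, the interferon-stimulated response element (ISRE), and to GGGA and TTCC with 2 bases between them, an NF-κB site. Both strands were searched. Cxcl10 at chr14:15988816-15989115 on the + strand holds an ISRE match and 3 NF-κB matches, of which the last pair overlaps in 1 run of capitals. Cxcl1 at chr14:17479272-17479571 on the - strand holds 2 NF-κB matches that overlap in 1 run.
Cxcl10: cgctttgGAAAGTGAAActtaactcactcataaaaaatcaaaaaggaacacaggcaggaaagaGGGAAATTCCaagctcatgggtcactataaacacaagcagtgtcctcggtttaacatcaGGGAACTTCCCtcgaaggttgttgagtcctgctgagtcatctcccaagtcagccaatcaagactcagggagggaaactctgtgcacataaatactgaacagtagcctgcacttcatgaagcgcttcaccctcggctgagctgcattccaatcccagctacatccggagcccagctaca
Cxcl1: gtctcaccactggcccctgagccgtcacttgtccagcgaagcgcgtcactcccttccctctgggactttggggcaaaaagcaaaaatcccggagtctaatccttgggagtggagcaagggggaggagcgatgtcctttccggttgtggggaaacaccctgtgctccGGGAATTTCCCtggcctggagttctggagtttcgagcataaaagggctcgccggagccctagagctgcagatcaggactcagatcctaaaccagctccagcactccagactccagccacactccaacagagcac
Among 10 of the 15 most lowered genes that had a promoter in the table, the ISRE letters were found in 3 (Cxcl10, Gbp2 and Rsad2) and the NF-κB letters in 3 (Cxcl1, Cxcl10 and Cxcl11). Among the promoters of all 13540 tested genes that had one, 3.35% held the ISRE letters and 1.37% the NF-κB letters. A match of letters is a description and not a measured binding site.

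Cxcl1 and Cxcl2, which attract neutrophils and are classical NF-κB targets, both fell. Cxcl1 read 10.05 and 10.11 at 24 h and 8.42 and 8.16 at 36 h, against 11.15 and 11.54 at 8 h, 11.41 at 10 h and 11.56 and 11.77 at 12 h, with control arrays between 6.45 and 7.25. The 24 h and 36 h arrays stood far apart from each other, and all 4 lay below the earlier arrays. The differences were -2.29 ± 0.15 for Cxcl1 and -2.01 ± 0.15 for Cxcl2 (limma adjusted p = 7.75e-09 and 6.05e-08).

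Ccl2, which recruits monocytes, was one of the genes that reached the control range. It read 5.20 and 5.22 at 24 h and 4.96 and 4.89 at 36 h, against 6.91 and 6.51 at 8 h, 7.13 at 10 h and 6.26 and 6.21 at 12 h. The control arrays read 5.07 and 4.94 at 24 and 36 h and 5.06, 4.91 and 4.79 at 8, 10 and 12 h, so that the later cytokine arrays and the control arrays overlapped. The difference was -1.63 ± 0.14 (limma adjusted p = 6.48e-07). Tnf, encoding the cytokine TNF, and Ccl20, a lymphocyte attractant, fell (-1.35 ± 0.12 and -1.20 ± 0.16, adjusted p = 4.66e-07 and 0.000117). Csf1, the macrophage growth factor, was not called: it read between 8.74 and 9.60 at 24-36 h and between 9.35 and 9.55 at 8-12 h, against 6.02 to 6.37 in the control arrays.

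**Figure D1:**
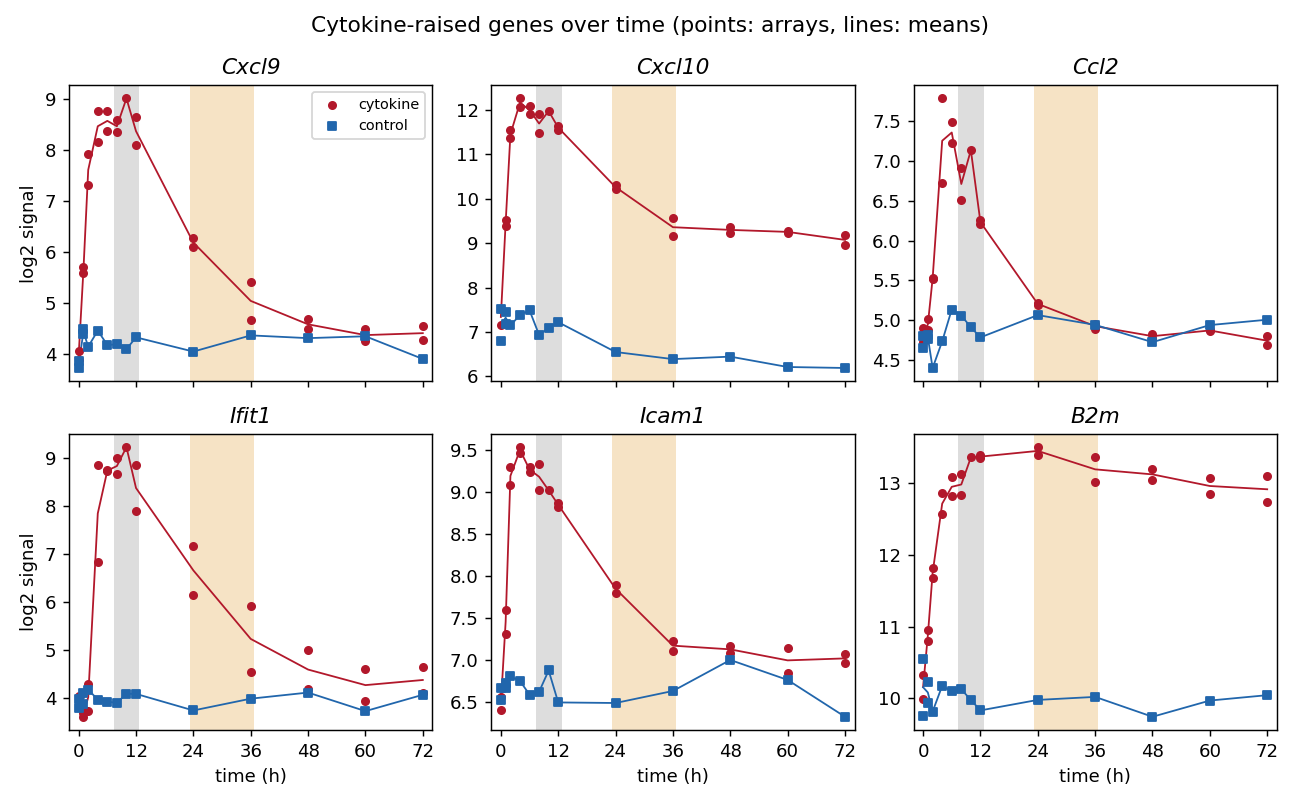
Log2 signal of 6 cytokine-raised genes against time in hours, one point per array and a line through the means, for cytokine cells (red circles) and control cells (blue squares); orange bands mark 24-36 h and grey bands 8-12 h. Ccl2 met the control points by 36 h, Cxcl9, Ifit1 and Icam1 came near them, and Cxcl10 and B2m stayed above them to 72 h.

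Leukocyte markers were looked at because many of these genes are also expressed by immune cells. Of 20 measured leukocyte markers 1 fell, Cybb (-0.53, adjusted p = 0.0121, and up to 0.0787 without replicate 1 at 24 h), and 0 rose by limma (2 lower and 0 higher at an unadjusted p under 0.05). Over all genes 3.13% were called lower and 1.71% higher. The mean log2 level of the 20 markers per array ran from 4.69 to 4.86 at 24-36 h and from 4.76 to 4.93 at 8-12 h in cytokine cells, and from 4.70 to 4.98 in the 5 control arrays. Ptprc, encoding the pan-leukocyte antigen CD45, read between 3.95 and 4.35 at 24-36 h and between 3.96 and 4.23 at 8-12 h. Arrays of a whole culture cannot tell fewer cells of a type from less RNA per cell, and how many cells remained was not measured here.

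Interferon and STAT targets were the list with the lowest median of the 34 described. Of 36 measured members, 31 fell and 1 rose, where 3.13% of all genes were called lower and 1.71% higher. The median was -1.14, against -0.10 in control cells. Of the same 36, 34 had been raised at 4-6 h. The count of members that fell ran from 21 to 30 with 1 array left out, and was 9 with the 24 h arrays alone. The member that rose was Ifi27 (0.37 ± 0.10, adjusted p = 0.0288), named after its value was seen. Members of near-identical families such as Gbp, Ifit and Mx may bind one another's probes, which leaves single-member values uncertain.

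Ifit1, an antiviral protein that binds foreign RNA, read 7.17 and 6.13 at 24 h and 5.92 and 4.53 at 36 h, against 9.00 and 8.67 at 8 h, 9.22 at 10 h and 8.86 and 7.89 at 12 h, with control arrays between 3.73 and 4.08. Replicate 2 was the lower of the pair at every one of these times, and the windows did not overlap. The difference was -2.87 ± 0.35 (limma adjusted p = 4.88e-05). Rsad2, which encodes the antiviral enzyme viperin, and Usp18, which removes the ubiquitin-like ISG15 and dampens interferon receptor signalling, fell as well (-2.22 ± 0.31 and -2.05 ± 0.34, adjusted p = 0.000147 and 0.000911). Isg15 itself averaged 7.22 ± 0.65 at 24-36 h and 9.08 ± 0.27 at 8-12 h in cytokine cells (SD, n = 4 and 5), whereas its control arrays read 5.87 and 5.90 at 24 and 36 h and 5.33, 5.12 and 5.43 at 8, 10 and 12 h. The cytokine difference was -1.89 ± 0.25 (adjusted p = 9.26e-05).

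Irf7, which amplifies interferon responses, read 7.40 and 6.87 at 24 h and 7.09 and 6.41 at 36 h, against 8.75 and 8.50 at 8 h, 8.61 at 10 h and 8.52 and 7.88 at 12 h, with control arrays between 5.78 and 6.00. No later array reached an earlier one, and the difference was -1.54 ± 0.18 (adjusted p = 2.62e-05). Irf1, an early IFN-γ target, fell by 1.06 ± 0.23 (adjusted p = 0.00736), a call lost without replicate 2 at 24 h or at 36 h (adjusted p up to 0.0572), and its later arrays read between 9.18 and 9.92 where control arrays read between 6.58 and 7.08. Parp9, a partner in STAT signalling, and Gbp2, a guanylate-binding GTPase, fell (-1.41 ± 0.15 and -1.81 ± 0.29, adjusted p = 1.22e-05 and 0.000508). Jak2 and Stat3, a kinase and a transcription factor of cytokine receptor signalling, fell (-0.71 ± 0.14 and -0.73 ± 0.11, adjusted p = 0.00404 and 0.000231). Among 23 measured receptors and signal relays 4 fell and 0 rose by limma (10 lower and 1 higher at an unadjusted p under 0.05). Over all genes 3.13% were called lower and 1.71% higher.

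Antigen presentation genes were called in part. Of 16 measured MHC class I and processing genes, 4 fell, where 3.13% of all genes were called lower, and 0 rose by limma (5 lower and 1 higher at an unadjusted p under 0.05), with a median of -0.11 in cytokine and 0.01 in control cells. B2m, the light chain of class I molecules, read 13.40 and 13.50 at 24 h and 13.36 and 13.02 at 36 h, against 12.84 and 13.13 at 8 h, 13.36 at 10 h and 13.39 and 13.35 at 12 h, while control arrays lay between 9.83 and 10.13. The windows overlapped, and every array of both lay above every control array (difference between windows 0.08 ± 0.14, adjusted p = 0.868). Psmb8 and Psmb9, subunits of the immunoproteasome, were likewise not called, at -0.34 ± 0.26 and -0.33 ± 0.26. The peptide transporter subunit Tap2 and the class I heavy chain gene RT1-S3 fell (-0.98 ± 0.18 and -1.17 ± 0.19, adjusted p = 0.00257 and 0.000799). Without replicate 2 at 24 h or at 36 h the list count was 2. Of 12 measured class II genes, 1 fell and 1 rose, where 3.13% of all genes were called lower and 1.71% higher. Of the 12, 9 differences were above 0, with a median of 0.14 in cytokine and 0.12 in control cells. Ciita, their master activator, fell by 0.54 ± 0.11 (adjusted p = 0.00347), while Cd74, the invariant chain, read between 10.89 and 11.63 at 24-36 h and between 9.59 and 10.60 at 8-12 h without passing the test (1.15 ± 0.36, adjusted p = 0.0824). RT1-Bb, a class II beta chain, read 7.57 and 7.35 at 24 h and 7.82 and 6.98 at 36 h, against 6.53 and 6.47 at 8 h, 6.57 at 10 h and 6.89 and 7.07 at 12 h, with control arrays between 5.61 and 6.11. The windows overlapped, the gene rose by 0.74 ± 0.19 (adjusted p = 0.023), and the call was lost with 5 of the 9 cytokine arrays left out singly (adjusted p up to 0.163 without replicate 1 at 36 h).

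NF-κB targets and regulators fell in part. Of 19 measured, 8 fell and 1 rose, where 3.13% of all genes were called lower and 1.71% higher. The median was -0.20, and -0.09 in control cells. The count of members that fell was 5 without replicate 2 at 24 h or at 36 h, and the rise of Lcn2, an iron-sequestering protein, reached an adjusted p of 0.295 without replicate 1 at 36 h. Icam1, an adhesion molecule for leukocytes, read 7.89 and 7.80 at 24 h and 7.23 and 7.11 at 36 h, against 9.34 and 9.02 at 8 h, 9.02 at 10 h and 8.87 and 8.82 at 12 h, with control arrays between 6.49 and 6.88. The later arrays lay between the earlier and the control arrays, and the difference was -1.50 ± 0.09 (limma adjusted p = 2.72e-09). Nfkbia, encoding the inhibitor IκBα, read 9.79, 9.77, 9.52 and 9.44 at 24-36 h, against 10.13 to 10.26 at 8-12 h, and fell by 0.54 ± 0.08 (adjusted p = 0.00029), but stayed above its control arrays (8.02 to 8.36). Sod2, the mitochondrial superoxide dismutase, fell by 0.63 ± 0.12 (adjusted p = 0.00315). The feedback inhibitors Socs1 and Socs3 were not called (-0.44 ± 0.19 and -0.08 ± 0.09), although Socs1 passed with the replicate block (-0.37, adjusted p = 0.0459).

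Nos2, the inducible nitric oxide synthase, read 9.51 and 8.44 at 24 h and 8.36 and 7.10 at 36 h, against 10.17 and 10.03 at 8 h, 10.30 at 10 h and 10.28 and 9.97 at 12 h in cytokine cells. Control arrays lay between 6.02 and 6.49. All later arrays were lower than all earlier ones and none reached the control range (-1.82 ± 0.31, adjusted p = 0.00103). Ass1, which regenerates arginine, the substrate of the synthase, was higher by 0.66 ± 0.15 (adjusted p = 0.0125), a call lost without replicate 1 at 24 h or at 36 h (adjusted p up to 0.101). These were the called members of 18 measured genes of nitric oxide and arginine handling. Gda, a guanine deaminase, reached its control range: it read 6.28, 5.46, 5.31 and 4.89 at 24-36 h, against 6.91 to 8.61 at 8-12 h, with control arrays between 5.15 and 5.58 (-2.44 ± 0.21, adjusted p = 6.48e-07).

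Cell division genes fell together. Of 30 measured mitosis genes 24 fell, where 3.13% of all genes were called lower, and 0 rose by limma (25 lower and 0 higher at an unadjusted p under 0.05). All 30 differences were below 0, and the median was -0.65 in cytokine cells against -0.11 in control cells. At 4-6 h, 0 of the 30 were called in either direction, where 3.58% of all genes were, a share too small for 30 genes to stand apart from. The median difference of the 30 from control at 4-6 h was -0.20, against -0.03 over all genes. The count ran from 21 to 24 with 1 array left out and was 13 with the 24 h arrays alone. Plk1, the kinase that drives entry into and passage through mitosis, read 9.15 and 9.21 at 24 h and 8.97 and 9.01 at 36 h, against 9.94 and 9.79 at 8 h, 9.90 at 10 h and 9.84 and 9.59 at 12 h. The control arrays read 9.69 and 9.85 at 24 and 36 h and 10.00, 9.86 and 9.97 at 8, 10 and 12 h, so the later cytokine arrays lay below all others. The difference was -0.74 ± 0.09, a 1.67-fold drop (limma adjusted p = 3.65e-05), and -0.17 ± 0.12 in control cells.

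Foxm1, the transcription factor of mitotic genes, Ccnb1, cyclin B1, and Mad2l1, of the spindle checkpoint, fell too (-0.73 ± 0.09, -0.72 ± 0.11 and -0.66 ± 0.09, adjusted p = 7.12e-05, 0.000422 and 9.26e-05). Mki67, the proliferation antigen Ki-67, was not called: it read between 9.61 and 9.92 at 24-36 h and between 9.36 and 10.45 at 8-12 h. The difference of the mitosis genes from the control change passed the test for 0 of 30 (limma; 20 at an unadjusted p under 0.05). DNA replication genes gave fewer calls: 7 of 24 fell, where 3.13% of all genes were called lower, and 0 rose by limma (15 lower and 0 higher at an unadjusted p under 0.05). Their median was -0.26, and -0.12 in control cells. The count of 7 was 2 without replicate 1 at 36 h, 3 without replicate 1 at 24 h, 4 without replicate 2 at 24 h or replicate 1 at 8 or 12 h, and 12 with the replicate block. Mcm3, a subunit of the replicative helicase, fell by 0.67 ± 0.12 (adjusted p = 0.00247). Cdkn1a, the cell cycle inhibitor p21, also fell and reached its control range: it read 9.71, 9.72, 9.33 and 9.36 at 24-36 h, against 10.60 to 10.94 at 8-12 h, with control arrays between 9.21 and 9.41 (-1.21 ± 0.18, adjusted p = 0.000324).

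Plk1's promoter is printed because most of the called mitosis genes hold 2 short motifs near their starts. It lies at chr1:186147408-186147707 on the + strand of GRCr8, and capitals mark CCAAT, the box bound by NF-Y, and TTTGAA, the cell cycle homology region (CHR), each searched on both strands.
Plk1: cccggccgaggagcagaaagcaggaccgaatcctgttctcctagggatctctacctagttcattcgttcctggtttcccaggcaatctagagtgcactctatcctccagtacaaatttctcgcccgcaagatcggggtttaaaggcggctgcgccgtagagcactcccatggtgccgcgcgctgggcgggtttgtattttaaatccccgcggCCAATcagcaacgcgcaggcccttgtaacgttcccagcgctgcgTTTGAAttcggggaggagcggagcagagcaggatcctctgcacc
Of 21 called mitosis genes with a promoter in the table, 15 held CCAAT and 15 held TTTGAA (71.4% each). Among all 13540 promoters the shares were 37.7% and 15.3%.

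**Figure D2:**
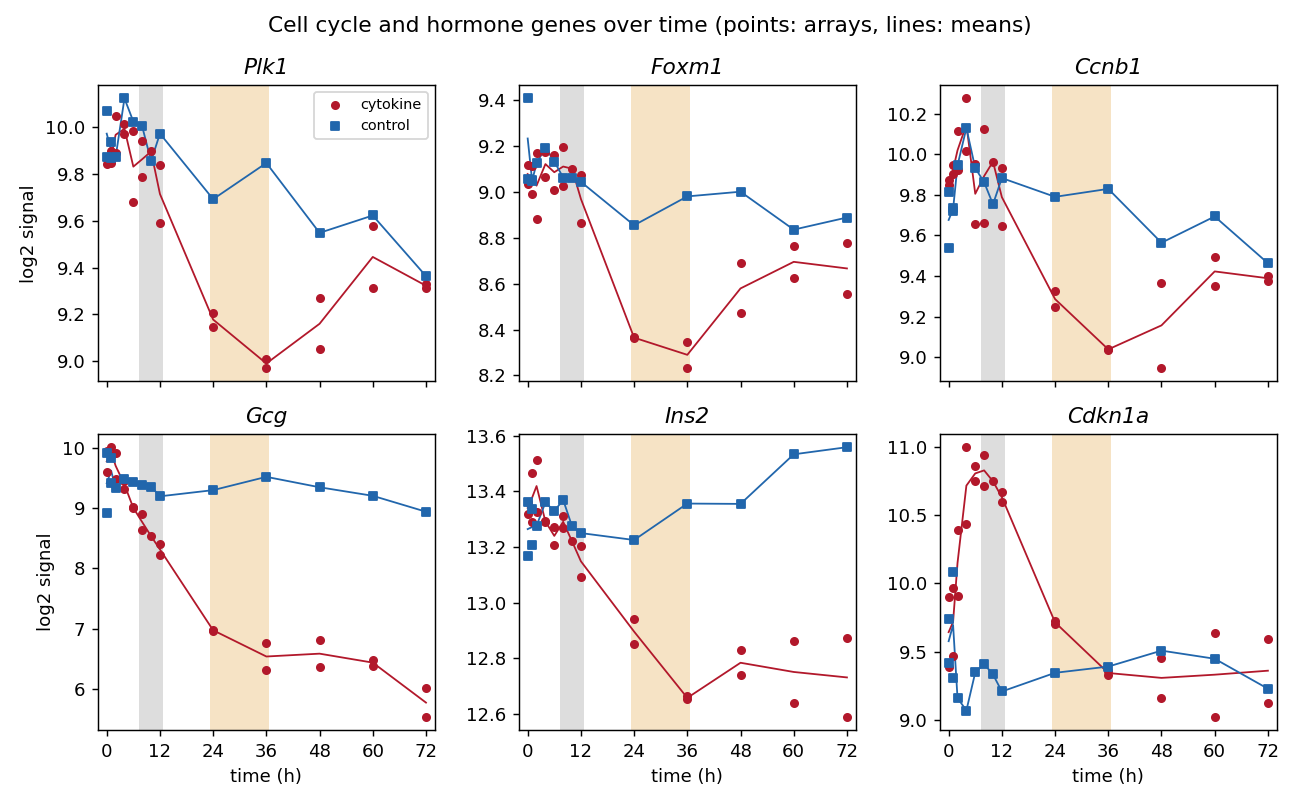
Log2 signal of 3 mitosis genes, 2 hormone genes and Cdkn1a against time in hours, one point per array and a line through the means, for cytokine cells (red circles) and control cells (blue squares); orange bands mark 24-36 h and grey bands 8-12 h. Plk1, Foxm1 and Ccnb1 were lowest at 36 h, and Cdkn1a met the control points by 36 h. Gcg lay below the control points already at 8-12 h and further below them at 24-36 h. Ins2 lay below its control points at 24-36 h, and some of its 8-12 h points did too.

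Hormone and beta cell genes did not move as one. Ins2, one of the pair of rat insulin genes, read 12.85 and 12.94 at 24 h and 12.66 and 12.65 at 36 h, against 13.27 and 13.31 at 8 h, 13.22 at 10 h and 13.09 and 13.20 at 12 h, with control arrays between 13.23 and 13.37. The later arrays lay below all others, and the difference was -0.44 ± 0.08, a 1.36-fold drop (limma adjusted p = 0.00243). Ins1, the other insulin gene, was not called: it read 14.18, 14.19, 14.21 and 13.49 at 24-36 h, against 14.13 to 14.41 at 8-12 h (-0.29 ± 0.11, adjusted p = 0.147), the value of 13.49 being replicate 2 at 36 h. Transcripts of the insulin genes are near-identical and may share probes.

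Gcg, the glucagon gene, which this line also transcribes, fell most among the hormones and did so below its control level. It read 6.98 and 6.96 at 24 h and 6.31 and 6.77 at 36 h, against 8.90 and 8.64 at 8 h, 8.54 at 10 h and 8.22 and 8.41 at 12 h in cytokine cells. Control arrays read 9.30 and 9.52 at 24 and 36 h and 9.39, 9.36 and 9.20 at 8, 10 and 12 h. No array of one cytokine window reached the other (-1.78 ± 0.17, a 3.45-fold drop, adjusted p = 2.43e-06), and at 4-6 h the cytokine arrays differed from control by -0.26 (adjusted p = 0.68). Sst and Ppy, encoding somatostatin and pancreatic polypeptide, were not called (0.08 ± 0.11 and -0.01 ± 0.12), and Gcg was the called member of 11 measured genes of other islet cells.

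Of 29 measured beta cell genes 4 rose and 1 fell, where 1.71% of all genes were called higher and 3.13% lower. The median was 0.19, and 0.07 in control cells. The count of members that rose was 9 with the replicate block, 2 without replicate 1 at 10 h or at 12 h, and 1 without replicate 2 at 24 h or at 36 h. Ucn3, a peptide secreted by mature beta cells, read 6.54 and 6.83 at 24 h and 6.41 and 6.96 at 36 h, against 5.71 and 6.10 at 8 h, 5.65 at 10 h and 5.99 and 5.99 at 12 h. Its control arrays lay between 6.25 and 6.49, so the cytokine arrays were below control in the earlier window and around it in the later one (0.84 ± 0.16, adjusted p = 0.00331). Slc2a2, the glucose transporter GLUT2, was higher by 0.28 ± 0.07 (adjusted p = 0.0181), and Glp1r, the receptor of the incretin GLP-1, by 0.71 ± 0.18 (adjusted p = 0.0231). Both of these calls were lost without replicate 2 at 24 h or at 36 h, among other arrays (adjusted p up to 0.0894 and 0.117). Mafa, Iapp and Nkx6-1, a transcription factor, the granule peptide amylin and another transcription factor of beta cells, were not called (0.18 ± 0.14, 0.13 ± 0.12 and -0.16 ± 0.13).

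In secretory granule and exocytosis genes 6 of 36 rose and 1 fell, where 1.71% of all genes were called higher and 3.13% lower. The median was 0.12, and 0.01 in control cells. The count of 6 was 2 without replicate 1 at 10 h or replicate 2 at 24 or 36 h, and 3 without replicate 1 at 12 h. Rph3al, a Rab effector of granule docking, read 9.90, 9.75, 9.94 and 9.80 at 24-36 h, against 9.17 to 9.51 at 8-12 h, and rose by 0.53 ± 0.08 (adjusted p = 0.000257). Rab3b, a small GTPase of exocytosis, rose by 0.48 ± 0.08, and Kcnma1, a calcium-activated potassium channel, by 0.50 ± 0.08 (adjusted p = 0.00106 and 0.000638). The control difference of Kcnma1 was 0.25 ± 0.11 (adjusted p = 0.57).

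Of the 284 higher genes, 3 had been raised and 16 lowered at 4-6 h, where 2.97% and 0.615% of all genes were. None of the 15 that rose most was called at 4-6 h, but 15 genes are too few to differ from the 3.58% of all genes. Cntn3, a cell adhesion molecule of the contactin family, read 6.77 and 7.47 at 24 h and 8.04 and 8.50 at 36 h, against 5.86 and 6.23 at 8 h, 5.64 at 10 h and 5.70 and 6.41 at 12 h. Control arrays lay between 5.80 and 6.21, so the later cytokine arrays stood above all others. The difference was 1.78 ± 0.23, a 3.45-fold rise (limma adjusted p = 6.46e-05), and 0.10 ± 0.30 in control cells.

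Sez6l, a membrane protein processed by the protease BACE, read 8.00 and 8.18 at 24 h and 8.63 and 8.24 at 36 h, against 6.72 to 7.18 at 8-12 h, and rose by 1.32 ± 0.14 (adjusted p = 5.52e-06). Drd2, the dopamine D2 receptor, read 7.14 and 7.29 at 24 h and 8.02 and 7.44 at 36 h, against 6.03 to 6.51 at 8-12 h, with control arrays of 6.22 and 6.25 at 24 and 36 h and 6.44 to 6.56 at 8-12 h. The cytokine windows did not overlap for either gene, which follows from the choice of the 15 largest, and Drd2 rose by 1.28 ± 0.17 (adjusted p = 8.65e-05). Vegfb, a vascular growth factor, rose by 1.16 ± 0.16, Muc13, a membrane mucin, by 1.20 ± 0.18, and Stk32a, a kinase, by 1.28 ± 0.16 (adjusted p = 0.000133, 0.000283 and 6.47e-05). Vldlr, a lipoprotein receptor, rose by 1.03 ± 0.21 and Wnt4, a secreted signalling protein, by 0.99 ± 0.19 (adjusted p = 0.0055 and 0.00325). Vldlr had read between 8.38 and 9.04 at 8-12 h, below its control arrays (9.24 to 9.45), and read between 9.30 and 9.95 at 24-36 h. A further pair of the 15 largest, Serpina1 (1.29 ± 0.34) and Kcna6 (0.87 ± 0.22), lost their call without replicate 2 at 24 h, among other arrays (adjusted p up to 0.194 and 0.116).

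**Figure D3:**
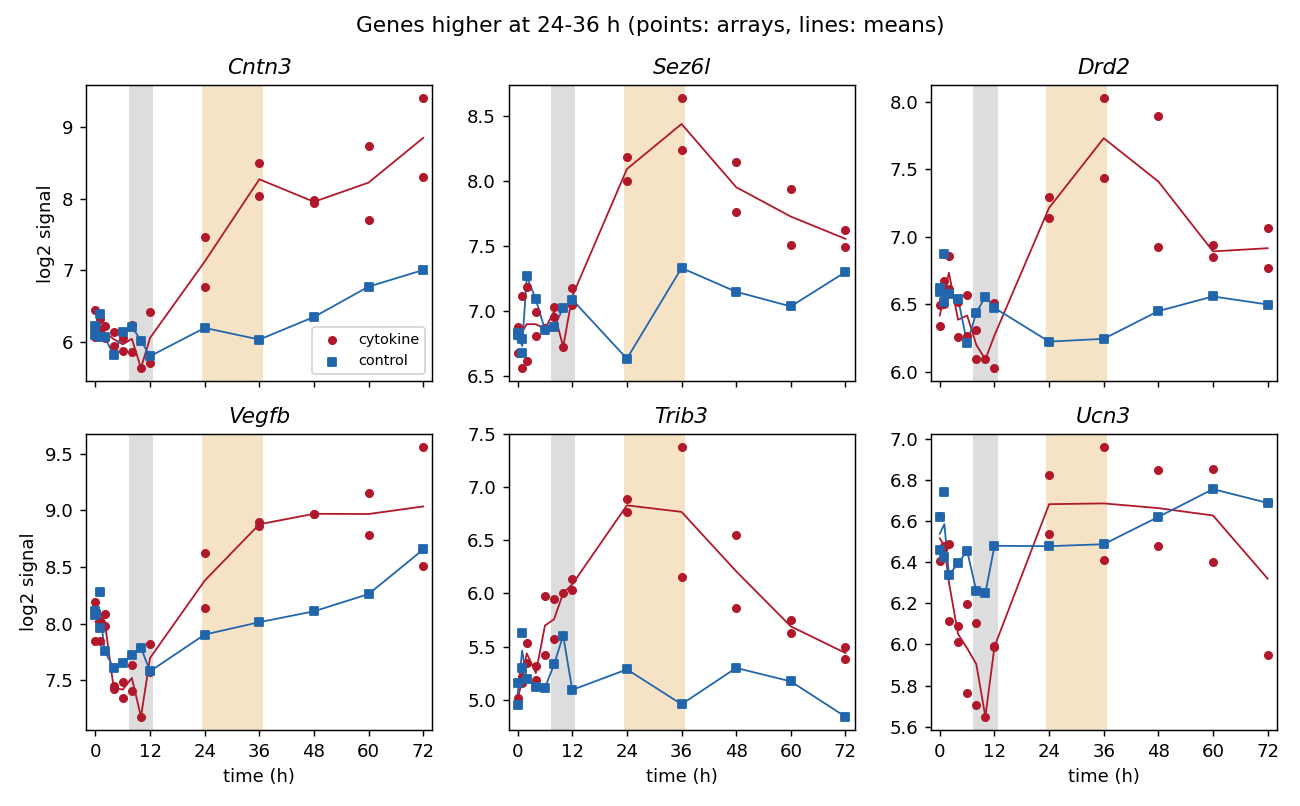
Log2 signal of 6 genes that were higher at 24-36 h against time in hours, one point per array and a line through the means, for cytokine cells (red circles) and control cells (blue squares); orange bands mark 24-36 h and grey bands 8-12 h. Cntn3 and Vegfb stayed high to 72 h, Sez6l, Drd2 and Trib3 declined after 36 h, and Ucn3 overlapped its control points from 24 h.

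**Figure D4:**
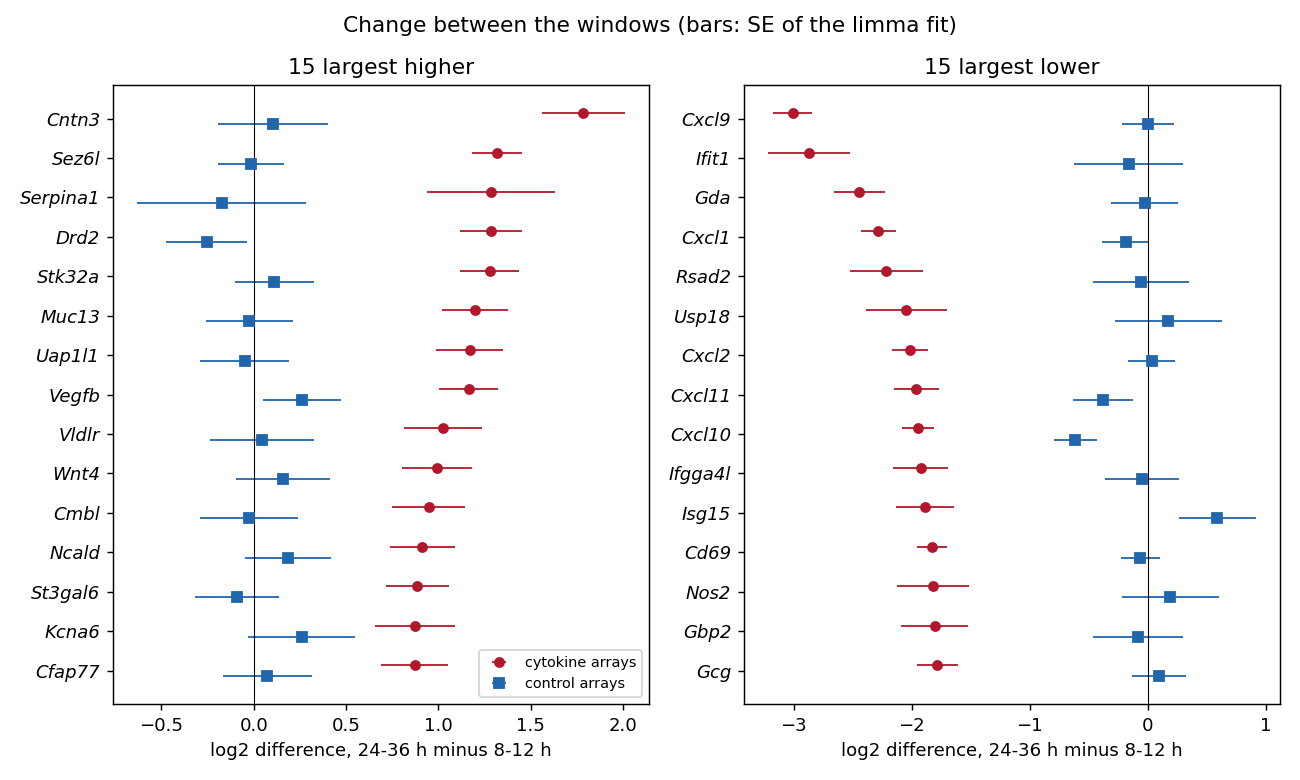
Log2 difference of 24-36 h minus 8-12 h in cytokine cells (red circles) and control cells (blue squares), with the SE of the limma fit as bars, for the 15 largest higher genes (left) and the 15 largest lower genes (right). Control points lay between -0.61 (Cxcl10) and 0.59 (Isg15), and the cytokine points ran from -3.01 (Cxcl9) to 1.78 (Cntn3). The genes were chosen by the size of the cytokine difference.

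ATF4 and CHOP targets, which respond to amino acid shortage and endoplasmic reticulum stress, rose in small number. Of 33 measured, 5 rose, where 1.71% of all genes were called higher, and 0 fell by limma (12 higher and 1 lower at an unadjusted p under 0.05). In 27 the difference was above 0, and the median was 0.12 against -0.004 in control cells. The count of 5 was 3 without replicate 1 at 36 h and 8 without replicate 2 at 36 h. Asns, which makes asparagine and is a classical ATF4 target, read 10.53 and 10.59 at 24 h and 10.80 and 10.39 at 36 h, against 10.14 and 9.93 at 8 h, 10.09 at 10 h and 10.05 and 9.89 at 12 h, with control arrays between 10.01 and 10.19. The windows lay apart, and the difference was 0.54 ± 0.09 (adjusted p = 0.000801). Trib3, a pseudokinase downstream of CHOP, read 6.77, 6.89, 7.38 and 6.16 at 24-36 h, against 5.57 to 6.14 at 8-12 h, with control arrays between 4.96 and 5.60. The replicate 2 array at 36 h lay just above the earlier window, the difference was 0.85 ± 0.19 (adjusted p = 0.0087), and the call was lost without replicate 1 at 36 h (adjusted p = 0.0566).

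Ddit3, encoding CHOP, read 8.12, 8.35, 8.32 and 7.89 at 24-36 h, against 7.24 to 7.86 at 8-12 h, and control arrays lay between 6.38 and 7.07 (0.63 ± 0.14, adjusted p = 0.00965, and up to 0.0721 without replicate 2 at 24 h or replicate 1 at 36 h). Atf4, Atf3 and Chac1 were not called (0.32 ± 0.11, 0.09 ± 0.20 and 0.12 ± 0.17). Among 17 measured aminoacyl-tRNA synthetases 3 rose, where 1.71% of all genes were called higher: Sars1 (0.48 ± 0.09), Mars1 (0.48 ± 0.10) and Eprs1 (0.32 ± 0.07). In the other direction 1 fell, where 3.13% of all genes did: Wars1 (-0.52 ± 0.10), the tryptophan enzyme that IFN-γ is known to induce. Eprs1 lost its call without replicate 2 at 24 h or replicate 1 at 36 h (adjusted p up to 0.0845). Endoplasmic reticulum chaperones and degradation genes gave 1 higher and 1 lower of 32, where 1.71% of all genes were called higher and 3.13% lower. Ern1, the stress sensor IRE1, rose by 0.68 ± 0.12, and Edem1, of the degradation pathway, fell by 0.82 ± 0.14 (limma adjusted p = 0.0016 and 0.000886). The chaperone Hspa5, also called BiP, was not called (-0.04 ± 0.10).

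Trib3's promoter, at chr3:161275484-161275783 on the - strand of GRCr8, is printed because Trib3 was the 1 of 4 called ATF4 and CHOP targets with a promoter that held the ATF4 element letters TGATGNAA, which appear in capitals in their reverse complement. The letters were found in 2.94% of all 13540 promoters.
Trib3: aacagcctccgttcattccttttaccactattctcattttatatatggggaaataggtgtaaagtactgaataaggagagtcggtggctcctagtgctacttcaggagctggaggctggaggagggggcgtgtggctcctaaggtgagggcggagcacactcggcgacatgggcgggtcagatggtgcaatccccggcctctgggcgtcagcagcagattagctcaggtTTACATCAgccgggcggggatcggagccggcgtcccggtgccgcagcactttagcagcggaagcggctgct

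Death regulators and p53 targets were called lower in part, where 3.13% of all genes were called lower. Of 32 measured apoptosis and lytic death regulators 8 fell and 0 rose by limma (13 lower and 1 higher at an unadjusted p under 0.05), with a median of -0.13 and -0.01 in control cells. The count was 4 without replicate 2 at 24 h and 5 without replicate 2 at 36 h. Fas, the death receptor, read 7.37 and 7.17 at 24 h and 7.03 and 6.82 at 36 h, against 7.82 to 8.29 at 8-12 h, with control arrays between 5.68 and 6.33, and fell by 1.04 ± 0.15 (adjusted p = 0.00018). Cflar, an inhibitor of death receptor signalling, fell by 0.53 ± 0.10 (adjusted p = 0.00233). Of 17 measured p53 targets 5 fell and 1, Btg1, an antiproliferative gene, rose (0.47 ± 0.10). That count of 5 was 1 without replicate 2 at 24 h and 2 without replicate 1 at 8, 10, 12 or 36 h or replicate 2 at 36 h.

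Some lists had similar medians in control cells. Of 23 antioxidant genes 5 fell, where 3.13% of all genes were called lower, and 0 rose by limma (8 lower and 0 higher at an unadjusted p under 0.05). The median was -0.14 in cytokine and -0.14 in control cells. Nqo1, a quinone reductase, read 7.75, 7.09, 7.29 and 6.55 at 24-36 h, against 7.81 to 8.62 at 8-12 h in cytokine cells, and 7.25 and 6.97 against 8.13 to 8.68 in control cells. The differences were -1.08 ± 0.28 and -1.27 ± 0.37 (adjusted p = 0.0258 and 0.41), and the cytokine call was lost without replicate 2 at 24 h, among other arrays (adjusted p up to 0.155). The antioxidant count was 2 without replicate 1 at 8 or 12 h or replicate 2 at 36 h, and 3 without replicate 1 at 10 h or replicate 2 at 24 h. All 32 proteasome core and lid genes had a difference below 0, with a median of -0.23 in cytokine and -0.15 in control cells. Of these 7 fell, where 3.13% of all genes were called lower. Between 2 and 10 did with 1 array left out, the count being 2 without replicate 2 at 24 h or at 36 h, and 3 without replicate 1 at 8, 10, 12, 24 or 36 h. Oxidative phosphorylation genes had medians of -0.09 and -0.09, with 1 of 43 called lower, where 3.13% of all genes were.

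In glycolysis 2 of 19 measured genes fell and 1 rose, where 3.13% of all genes were called lower and 1.71% higher. Pfkp, the platelet form of phosphofructokinase, read 10.35 and 10.02 at 24 h and 10.10 and 9.85 at 36 h, against 11.52 and 11.12 at 8 h, 11.42 at 10 h and 11.23 and 10.75 at 12 h, with control arrays between 9.17 and 9.35. The later arrays lay between the earlier and the control arrays (-1.16 ± 0.12, adjusted p = 4.01e-06). Aldoc, an aldolase, fell by 0.68 ± 0.13, and Eno2, the neuronal enolase, rose by 0.80 ± 0.11 (adjusted p = 0.00325 and 0.000154). Heat shock proteins, cholesterol synthesis and lipid synthesis gave 0 calls by limma among 15, 19 and 18 genes, with 3, 3 and 2 at an unadjusted p under 0.05.

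**Figure D5:**
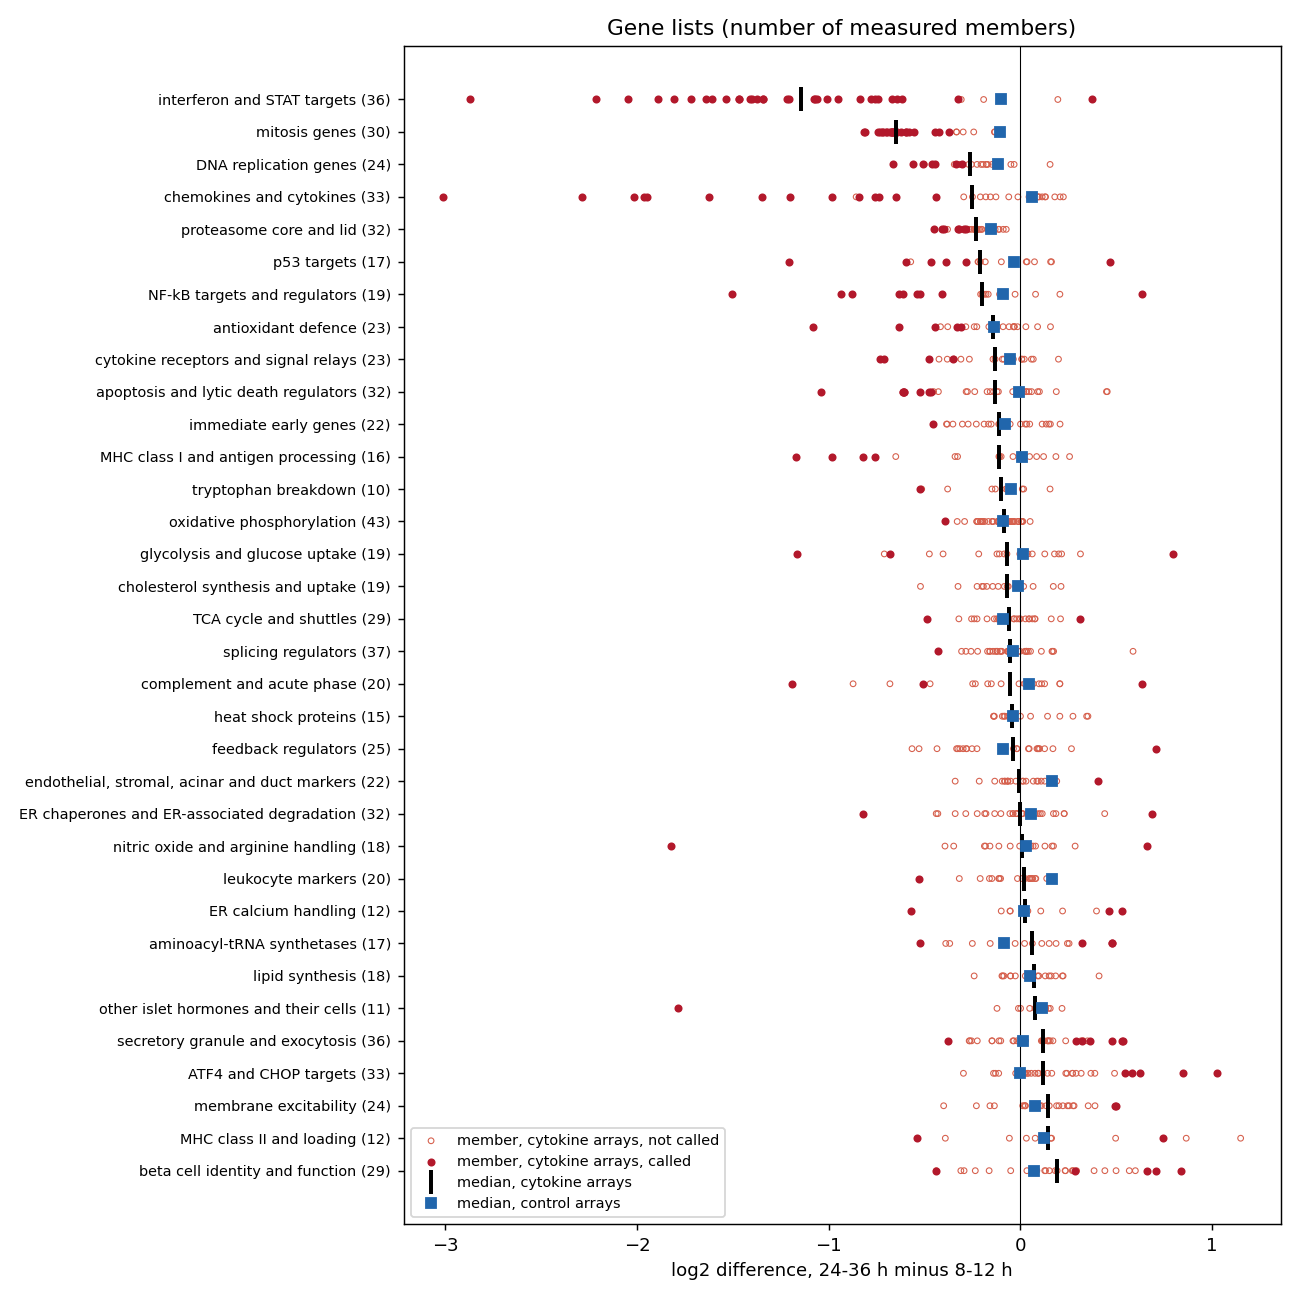
Log2 difference of 24-36 h minus 8-12 h for every member of 34 gene lists, with the number of measured members in brackets: filled red circles are members called in cytokine cells, open circles members not called, black bars the cytokine medians and blue squares the control medians. Interferon and STAT targets (-1.14) and mitosis genes (-0.65) had the lowest cytokine medians, and beta cell genes (0.19) the highest.

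Whether a cytokine change differed from the control change was tested for every gene as the difference of the 2 differences. It passed for 24 genes in the lower direction (0.145% called) and 7 in the higher direction (0.0422% called). With the replicate block 50 and 22 passed. The counts rest on 1 control array at each time: 13 lower and 1 higher genes passed without the control array at 24 h, and 14 and 2 without that at 36 h. Among higher genes, 4 passed without replicate 1 of the cytokine arrays at 24 h, 3 without replicate 2 at 24 h, 4 without replicate 1 at 36 h and 11 without replicate 2 at 36 h. In all, 10 genes passed with every one of the 14 arrays left out in turn, namely Ccl2, Cd69, Cxcl1, Cxcl2, Cxcl9, Gcg, Gda, Icam1, Pfkp and Tnf, all in the lower direction.

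Among the 520 lower genes the control difference was below 0 for 392 and above 0 for 128, with a median of -0.11, against a cytokine median of -0.54. Among the 284 higher genes it was above 0 for 170 and below 0 for 114, with a median of 0.03, against a cytokine median of 0.45. Both sets were chosen by the cytokine difference, so its larger size follows in part from the choice. Of the 520 lower genes 23 passed the test of the difference of changes, and of the 284 higher genes 6 did. The control arrays are 1 per time, so no control value has a replicate, and the control SE comes from the spread between replicate arrays of other groups.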

How the data were processed

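The values deposited by the authors are log2 signals per probe set (range 2.27 to 14.46, from which the scale was inferred), and they were taken over unaltered. How the authors corrected background or normalized is not given in the sources. Medians of the arrays spanned 6.54 to 6.62. Of 19239 probe sets, 16592 carried 1 gene symbol and 2647 none. Symbols were updated through a GRCr8 gene table (16453 found), and the brightest probe set was kept for 5 symbols with several, which left 16587. Dim probe sets were kept.

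Differences were fitted with limma 3.58.1 in R 4.3.3 on all 40 arrays, with 1 mean per treatment and time (residual df 14), times within a window weighted equally, and Benjamini-Hochberg adjustment over all 16587 symbols; called means adjusted p under 0.05. The change in cytokine cells, the change in control cells, their difference, and cytokine minus control at 4-6 h were tested. On simulated data the fit recovered 61% of log2 changes of 0.5 and 99% of changes of 1 in the cytokine comparison, with 10 false calls. For the difference of changes it recovered 9% and 82%, with 3 false calls. No sample has depth in reads; precision is limited by the number of arrays. The labels do not tie the 2 occasions of the series to replicate numbers. In the cytokine arrays, however, same-numbered replicates deviated together (correlations of 0.196 to 0.421 over 6 pairs of times), so the numbers were taken to pair the samples. The main fit leaves this pairing out, and only the fit with the replicate number as a block uses it. The simulated data had independent noise for each array and so lacked the pairing, and their recovery and false calls may not hold for the real arrays.

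Named were the 15 largest called differences in each direction with windows that do not overlap, up to 4 called members of each list by smallest p, the 6 largest in each direction of the difference of changes, and a set of standard beta cell genes; the genes Anln, Cd53, Diras2, Enpp2, Ifitm1, Ptgr1, Ptgs1, Stx11, Tnf and Ccl20, the members named as not called, and Ccnb1 were added after values were seen. The members and lists were chosen with earlier results of these data known. Some genes of the lists are not reported here. Alternatives comprised the replicate block, other scalings, filters, moderation and windows, and each array left out.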

Additional observations from a re-analysis of the deposited data

Results flagged for a closer look

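For 31 genes the change between 8-12 h and 24-36 h differed between cytokine and control cells by the test of the difference itself (limma, adjusted over all genes). The values are the cytokine change minus the control change on the log2 scale, and no cause was tested. Among inflammatory and signalling genes the difference was -3.01 for Cxcl9, -2.48 for Isg15, -2.10 for Cxcl1, -2.05 for Cxcl2, -1.76 for Cd69, a lymphocyte activation antigen, -1.71 for Ccl2, -1.58 for Cxcl11, -1.56 for Tnf, -1.51 for Ifitm1, -1.50 for Irf7, -1.47 for Parp9, -1.40 for Icam1, -1.34 for Gbp4, -1.33 for Cxcl10 and -1.09 for Nfkbiz. Among other genes with a negative value it was -2.42 for Gda, -1.88 for Gcg, -1.39 for Stx11, a syntaxin, -1.32 for Ptgr1, a prostaglandin reductase, -1.27 for Pfkp, -0.99 for Anln, the cytokinesis protein anillin, -0.95 for Cd53, a leukocyte tetraspanin, -0.90 for Enpp2, the lysophospholipid enzyme autotaxin, and -0.89 for Ptgs1, the constitutive cyclooxygenase. Among genes with a positive value it was 1.54 for Drd2, 1.33 for Sez6l, 1.06 for Pgm5, 1.01 for Eef2k, the kinase of elongation factor 2, 0.85 for Srgap1, 0.84 for Rhoq, a small GTPase, and 0.75 for Diras2.

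In 2 of these, Cd53 and Rhoq, the control difference was the larger one. Their cytokine change itself was not called (limma adjusted p = 0.196 and 0.0529). Cd53 read 3.72, 3.77, 3.80 and 3.78 at 24-36 h and between 3.83 and 4.29 at 8-12 h in cytokine cells, and 4.03 and 4.21 against 3.43, 3.40 and 3.52 in control cells. Rhoq read between 8.13 and 8.58 at 24-36 h and between 7.89 and 8.24 at 8-12 h in cytokine cells, and 8.00 and 7.76 against 8.25 to 8.50 in control cells. Both calls were lost with most single arrays left out (adjusted p up to 0.19 for Cd53 and 0.232 for Rhoq).

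For 10 of the 31 the call held with each of the 14 arrays left out in turn, and for 21 it was lost with at least 1. Single treatments and times held at most 2 arrays, so no group was large enough to examine 1 array as an outlier.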

How the results depend on the processing

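With the replicate number as a block, 433 genes were higher and 681 lower in cytokine cells, 22 and 50 passed in the difference of changes, 1 was higher in control cells and 276 were lower at 4-6 h. Under the block 9 beta cell genes were higher, and 12 DNA replication and 5 complement and acute phase genes lower, against 4, 7 and 2 without it. Counts of 1 became 2 for class II genes in each direction and for lower genes of nitric oxide handling, ER chaperones, secretory granules, oxidative phosphorylation, tRNA synthetases, immediate early genes and splicing, and 3 for lower TCA cycle genes. The remaining list counts, the 492 genes raised at 4-6 h and the 224 of them that were lower moved by at most 1.5 times. All 130 named calls in cytokine cells were kept, and Rhoq, Socs1 and Txnrd1 became called. Restricting the cytokine comparison to replicate 1 gave 27 higher and 86 lower genes (4 and 9 in the difference of changes), and to replicate 2 gave 3 and 4. With 24 h alone as the later window there were 48 and 136, and in the difference of changes 0 and 1, with 1 lower gene in control cells. With 12 h alone as the earlier window there were 38 and 92, and 0 and 5 in the difference of changes. These settings use fewer arrays. With arrays of the windows only, 11 genes were higher in the difference of changes and 40 lower at 4-6 h. Array weights gave 37 lower in the difference of changes. Leaving out 1 array at a time gave 122 to 287 higher and 299 to 592 lower genes in cytokine cells, 0 to 0 higher and 0 to 1 lower in control cells, 1 to 11 and 13 to 26 in the difference of changes, and 290 to 501 and 33 to 98 at 4-6 h. Of 130 named calls in cytokine cells 92 held with every array left out, and 0 changed direction. Quantile normalization kept 129 and median centring 130. The replicates number 2 at most and control cells have 1 array per time of the windows, which limits every control value.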
